A study of Mus musculus with 8 samples.

Results

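The data describe the lysozyme genes Lyz1 and Lyz2 in mouse Paneth cells, 2 of the 55414 gene IDs counted in the series. They were found by matching the Ensembl IDs ENSMUSG00000069515 and ENSMUSG00000069516 to their symbols in GENCODE M39, and both passed the filter on low counts that left 11988 genes for testing. C57BL/6J mice received ultrapure Milli-Q water, or such water with 25 mM ZnSO4, as their drinking water for 7 days. Paneth cells were then sorted by fluorescence from a cell suspension of the small intestine of each mouse, and stranded mRNA libraries were made from total RNA. Each group held 4 mice with 1 library each. No genetic change or further agent is named for either group, and the labels give no age. Library totals ran from 20760764 to 24117111 counts.

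Lysozyme is a secreted enzyme that cuts the glycan strands of peptidoglycan in bacterial cell walls and so lyses bacteria. The mouse carries a duplicated gene for it. Lyz1, or P lysozyme, is known as the form stored in the granules of Paneth cells, and Lyz2, or M lysozyme, is known as the form of macrophages and neutrophils, and its locus is widely used to drive Cre recombinase in myeloid cells. In bulk samples, fewer cells of a type and less RNA per cell cannot be told apart.

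Both genes lie on chromosome 10 of GRCm39, on the minus strand and next to each other. Lyz1 runs from 117123698 to 117128775 with 4 merged exons of 1273 bases in all, and Lyz2 from 117111557 to 117118346 with 5 merged exons of 3325 bases. Only 5351 bases separate them. The nearest protein-coding gene below the pair is Lyz3, a further lysozyme gene, at a distance of 36948 bases. Above the pair it is Cpsf6, which encodes a subunit of the mRNA cleavage factor, at 51790 bases. The annotation also places Gm67237, a long non-coding RNA on the plus strand, across the end of Lyz2. Its ID had no row in the count table. No source used here names the strand setting of the counting, so its reads and those of Lyz2 cannot be told apart.

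**Figure D1:**
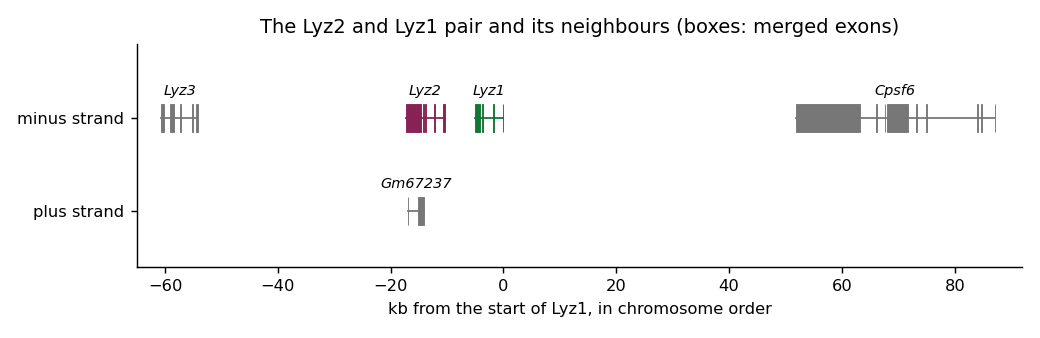
Map of the lysozyme pair and its neighbours from GENCODE M39, with the distance in kb from the start of Lyz1 on the horizontal axis and the strand on the vertical axis. Boxes are merged exons. The map shows Lyz2 and Lyz1 side by side on the minus strand, 5351 bases apart, with Lyz3 and Cpsf6 as the nearest protein-coding neighbours.

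The proteins are encoded by 444 bases, or 148 codons, in each gene. The coding sequences differed at 22 of these positions, so that 422 were identical. Exon 2, which is coding over its whole length, is shown because it displays how few bases tell the transcripts apart. It is read from GRCm39 on the minus strand, at chr10:117126934-117127098 for Lyz1 and chr10:117116546-117116710 for Lyz2. The capitals mark the 6 of 165 bases that differ.
Lyz1 exon 2: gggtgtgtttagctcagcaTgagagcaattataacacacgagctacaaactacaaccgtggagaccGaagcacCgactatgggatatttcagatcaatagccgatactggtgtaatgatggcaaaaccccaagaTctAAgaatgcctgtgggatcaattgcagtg
Lyz2 exon 2: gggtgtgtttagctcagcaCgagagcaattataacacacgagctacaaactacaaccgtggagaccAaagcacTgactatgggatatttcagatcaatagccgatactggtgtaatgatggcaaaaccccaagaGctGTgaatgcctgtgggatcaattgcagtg

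The promoters were less alike. Of 252 aligned columns, 200 were identical (79.4%), 48 were substitutions and 4 were gaps. Both are shown because the levels of the 2 genes in these libraries were so far apart. They are the 250 bases before the RefSeq start site on GRCm38.p6, minus strand, at chr10:117292869-117293118 for Lyz1 and chr10:117282273-117282522 for Lyz2. Judged by the distance between the 2 genes, the RefSeq start of Lyz2 lies inside its first merged exon in GENCODE. Part of the Lyz2 window is therefore annotated as exon there. The capitals mark bases that differ or face a gap.
Lyz1 promoter: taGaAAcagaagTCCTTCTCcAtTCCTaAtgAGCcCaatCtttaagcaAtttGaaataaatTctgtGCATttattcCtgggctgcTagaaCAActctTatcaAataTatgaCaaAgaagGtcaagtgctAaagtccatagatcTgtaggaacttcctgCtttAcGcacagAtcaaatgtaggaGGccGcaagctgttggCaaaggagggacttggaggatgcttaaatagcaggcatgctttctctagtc
Lyz2 promoter: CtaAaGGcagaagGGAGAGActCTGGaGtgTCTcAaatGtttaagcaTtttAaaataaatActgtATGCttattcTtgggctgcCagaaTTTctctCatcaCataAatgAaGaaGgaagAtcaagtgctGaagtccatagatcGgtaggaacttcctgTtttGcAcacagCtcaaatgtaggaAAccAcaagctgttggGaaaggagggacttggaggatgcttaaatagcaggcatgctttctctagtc
The 50 bases next to the start site were the same in both genes. This stretch held TTAAATA, similar to the TATA box, with its first base at position -28 from the start in both. On either strand, 4.18% of 32851 mouse promoters of this length held it, and neither gene held TATAAA, which 12.4% did. AGGAAGT, a core bound by ETS family factors, lay on the opposite strand in both genes, where the printed bases read ACTTCCT from position -100. On either strand, AGGAAGT occurred in 7.69% of promoters. The longer GAGGAAGT, which contains it, was in neither gene and in 2.44% of promoters. ACAAAG, a core of SOX and TCF sites, began at position -140 of Lyz1, was not in the Lyz2 window and occurred in 16.5% of promoters. TTGTTT, of the kind bound by forkhead factors, and the E-box CAGCTG were in neither window, and occurred in 18.3% and 13.0% of promoters. These matches are descriptions of letters and not of bound sites.

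Lyz1 was among the most abundant transcripts of every library. Its counts were 3292464, 3341502, 3586546 and 3232737 with water (replicates 1 to 4) and 3794378, 3399017, 3447221 and 3091383 with zinc. By count it took rank 2 in 6 libraries, behind the α-defensin gene Defa24, and rank 1 in water replicate 4 and zinc replicate 4. Per kb of exon its level was between 112283 and 137038 CPM, here the count relative to its library total, against 322092 to 474226 for Defa24 and 49606 to 65647 for Itln1, the intelectin gene. On that scale Defa24 had rank 1 in every library and Lyz1 rank 2 in all but zinc replicate 3, where it had rank 3. The ranges of Defa24, Lyz1 and Itln1 over the 8 libraries did not overlap.

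Lyz2 was counted at a low level. It had 551, 590, 420 and 370 counts in the water libraries and 419, 404, 575 and 336 counts in the zinc libraries. Its exact Poisson 95% intervals ran from 301 to 374 counts at the lowest to 543 to 640 at the highest, and cover counting error only. Per kb of exon this was 4.80 to 7.91 CPM. Its rank by count ran from 2608 to 5898.

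**Figure D2:**
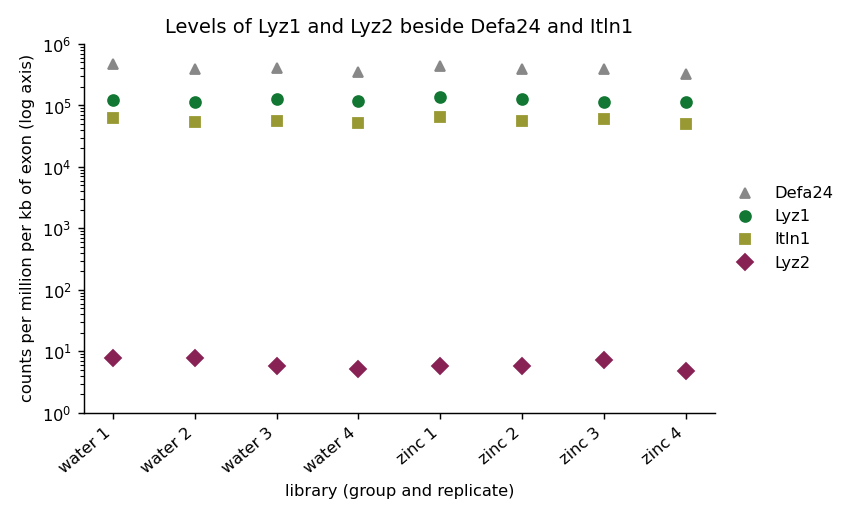
Levels of Defa24, Lyz1, Itln1 and Lyz2 in each of the 8 libraries, in CPM of the library total per kb of merged exon on a log axis. Lyz1 sits between Defa24 and Itln1 at 112283 to 137038, and Lyz2 at 4.80 to 7.91.

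The 2 neighbouring genes thus differed by more than 4 orders of magnitude per length in the same libraries. For each Lyz2 count there were 5975, 5664, 8539 and 8737 Lyz1 counts in the water mice and 9056, 8413, 5995 and 9201 in the zinc mice. Corrected for exon length, the mean log2 ratio was 14.27 ± 0.304 (SD, n = 8), or 19733-fold, and it was above 0 in 8 of 8 libraries (exact two-sided sign-flip test, p = 0.00781, the smallest that 8 libraries can give). With every ratio so far above 0, the test could give no other p and does not bear on the size of the ratio. With the canonical transcript lengths of 1269 and 2995 bases in place of merged exons, the mean log2 ratio was 14.12. The 3 libraries with the lowest ratios, water replicates 1 and 2 and zinc replicate 3, came from both groups.

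No source used here says how reads that match both genes were counted. A read length is stated for the study's data in general and not for these libraries, so windows of several lengths were compared. Of the 1195 windows of 75 bases in the canonical Lyz1 transcript, 74 (6.19%) occurred unchanged in that of Lyz2 and 225 (18.8%) with up to 1 mismatch. With windows of 50 bases 16.0% were unchanged, and with windows of 100 bases 2.05%. Had reads been spread evenly, the unchanged 75-base windows would have held 191433 to 234966 Lyz1 counts per library, which is 351 to 570 times the whole Lyz2 count. Seen from Lyz2, fewer windows were shared, since 2.53% of its 2921 windows of 75 bases were unchanged in Lyz1 and 7.70% had up to 1 mismatch. The part of the Lyz2 counts that came from Lyz1 reads was not tested.

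The other genes of the family were silent or nearly so. Of 10 listed lysozyme genes of the c and g types and their relatives, 8 had under 10 counts in every library and 6 had 0 in all of them (Lyzl1, Lyzl6, Spaca5, Lalba, Lyg1 and Lyg2). With 3 counts as the limit of a 0, they may have reached 0.124 to 0.145 CPM. Lyz3 had 0 counts in 5 libraries and 1 or 2 in the other three. Cpsf6, on the other side of the pair, had 586 to 1035 counts and did not pass the test between groups (log2 fold change 0.22, SE 0.12, adjusted p = 0.998 in edgeR).

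The comparison of zinc with water asked whether oral zinc changed gene expression in these cells. The metallothionein gene Mt2, which zinc is known to switch on, rose from 3.95 to 283 TMM CPM (CPM after TMM scaling, which adjusts library totals so that most genes match between libraries; log2 fold change 6.15, SE 0.51, adjusted p = 0.0198 in edgeR's quasi-likelihood test). Without water replicate 1, 2 or 4 its log2 fold change was 5.93 to 6.08 and the call was lost (adjusted p = 0.0807 to 0.0906 in edgeR). Neither lysozyme gene passed the threshold. Over all genes, 10 of 11988, or 0.0834%, had an edgeR adjusted p below 0.05, with 0.025% higher and 0.0584% lower with zinc, and 2.84% had groups that did not overlap. Of the 2 lysozyme genes 0 were called by edgeR, DESeq2 or limma-voom, and 0 had an unadjusted edgeR p below 0.05, which 558 of all genes tested (4.65%) had.

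In the water mice, replicates 1 to 4, Lyz1 took 15.7, 14.6, 16.2 and 14.97% of the reads counted. In the zinc mice it took 17.4, 16.4, 14.3 and 14.7%. The zinc values lay on both sides of the water values, with zinc replicates 1 and 2 above all of the water libraries and zinc replicate 3 below them. The Wilson 95% interval of the highest share ran from 17.43 to 17.46%, far narrower than the spread between mice. The zinc mean was 0.338 percentage points above the water mean (SD 0.709 with water and 1.47 with zinc, n = 4 each, exact two-sided permutation p = 0.743, where 70 assignments allow no p under 0.0286). Without zinc replicate 1 the difference was -0.24 points. In edgeR the log2 fold change was 0.05 (SE 0.36, 95% interval -0.70 to 0.80, adjusted p = 0.998), an interval that spans 0.615-fold to 1.74-fold. With library totals as the only scaling in place of TMM it was 0.03 (SE 0.15, interval -0.27 to 0.33), or 0.831-fold to 1.26-fold.

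Lyz2 stood at 26.3, 25.8, 18.9 and 17.1 CPM in the water mice, and at 19.3, 19.5, 23.8 and 15.95 in the zinc mice. Water replicates 1 and 2 and zinc replicate 3 were the high libraries, and the remaining values of both groups lay together. The mean ± SD of 4 mice was 22.03 ± 4.69 with water and 19.6 ± 3.24 with zinc, and an exact two-sided permutation test gave p = 0.429. In edgeR the log2 fold change was -0.19 (SE 0.29, 95% interval -0.84 to 0.46, adjusted p = 0.998), or 0.559-fold to 1.37-fold. Without water replicate 1 it was 0.07.

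The ratio of the 2 genes in each library does not depend on scaling. Its log2 value, as mean ± SD of 4 mice, was 12.79 ± 0.331 with water and 12.98 ± 0.289 with zinc. By an exact two-sided permutation test the gap of 0.18 had p = 0.286, and it ran from 0.08 to 0.33 as single libraries were left out.

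**Figure D3:**
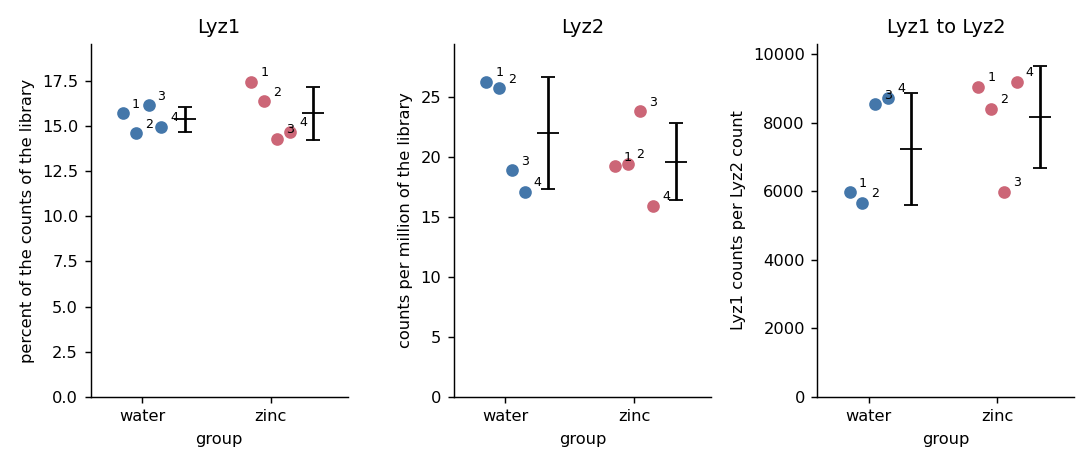
Share of Lyz1, CPM of Lyz2 and Lyz1 counts per Lyz2 count in the water and zinc libraries, with linear axes from 0. Points are libraries numbered by replicate, and the bars give the mean and SD of 4. Water and zinc libraries overlap in each panel, and water 1, water 2 and zinc 3 stand apart from the others in the panel of the ratio, between 5664 and 5995.

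Taken as a share of the library, Lyz1 varied least between mice of 9 secreted products compared. Its coefficient of variation (CV) over the 8 libraries was 6.99%, against 8.24% for Pglyrp1, 9.67% for Itln1, 12.1% for the 28 coding Defa genes summed, 12.4% for Defa24 and 18.8% for Mptx2, a mucosal pentraxin. The median of all tested genes was 24.2%. On the TMM scale it did not have the lowest CV, at 24.1% against 22.2% for Pla2g2a, a secreted phospholipase, and 17.0% for the median gene. The TMM factors ran from 0.764 to 1.23, were lowest in replicate 1 and highest in replicate 4 of both groups, and enter the level of every gene on that scale. For Lyz2 the CV was 18.9% on library totals and 32.4% on the TMM scale, where counting error alone gives 4.67%.

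The weight of Lyz1 against the other main products varied from mouse to mouse. Per Defa24 count there were 0.771, 0.865, 0.932 and 1.01 Lyz1 counts in the water mice, and 0.9097, 0.955, 0.859 and 1.06 in the zinc mice. Per Itln1 count there were 1.94, 2.09, 2.21 and 2.26 in water and 2.04, 2.23, 1.84 and 2.28 in zinc. Both ratios were highest in replicate 4 of each group, where the summed coding Defa genes were at their lowest share (29.2% and 27.9%). Neither ratio separated the groups (p = 0.486 and 0.829 by exact two-sided permutation). The study reports many multi-mapped reads and calls the assignment of reads among the similar Defa genes challenging. How such reads were counted here is not stated. The Defa counts, the ratios to Defa24, and the shares and ranks of Lyz1 given above depend on that rule.

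Whether the 2 lysozyme genes moved together from mouse to mouse depended on the scaling. Over 8 libraries the log2 levels of Lyz1 and Lyz2 had a Pearson r of 0.76 on the TMM scale (exact permutation p = 0.0292, adjusted p = 0.0365 over 5 relations) and a Spearman rho of 0.69 (exact permutation p = 0.0694, adjusted p = 0.0867). On library totals r was -0.18 (exact permutation p = 0.673, adjusted p = 0.673). With the group means taken off, r was 0.78 on the TMM scale and -0.14 on library totals. Without water replicate 1 and zinc replicate 1, the 2 libraries farthest from the median of Lyz1, r on the TMM scale was 0.60 (exact permutation p = 0.214). With single libraries left out, r on the TMM scale ran from 0.66 to 0.83. The relation passed the threshold on the TMM scale over 8 libraries, and did not on library totals or over the 6 libraries without those named.

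**Figure D4:**
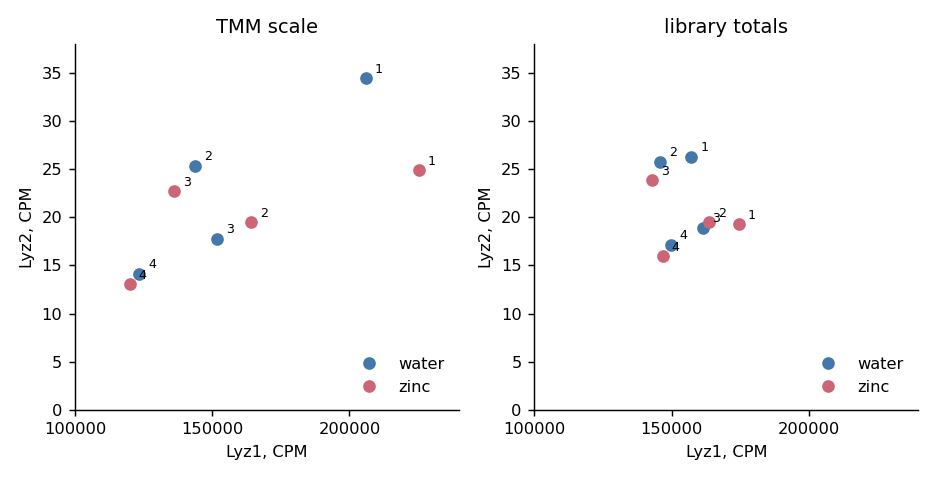
Lyz2 against Lyz1 in the 8 libraries on the TMM scale (left) and on library totals (right), both as CPM, with the Lyz1 axis not starting at 0. Points are libraries numbered by replicate. On the left r is 0.76, and on the right -0.18.

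The relation of both genes to the main granule products also depended on the scaling. Here, as for Lyz1 with Lyz2, both levels are divided by the same TMM factor in each library. The permutation does not allow for that. From library totals to the TMM scale, the CV rose from 6.99% to 24.1% for Lyz1 and from 12.1% to 30.9% for the summed Defa genes. On the TMM scale Lyz1 had an r of 0.96 with the summed coding Defa genes (rho 0.90, exact permutation p = 0.000694 and 0.00456, adjusted p = 0.00205 and 0.0181). With Itln1 the r was also 0.96 (rho 0.83, exact permutation p = 0.000818 and 0.0154, adjusted p = 0.00205 and 0.0256). Lyz2 had an r of 0.90 with the summed Defa genes (rho 0.88, exact permutation p = 0.00357 and 0.00724, adjusted p = 0.00595 and 0.0181). On library totals these r were 0.59, 0.61 and 0.67, and none passed (exact permutation, adjusted p = 0.210 for each). With the group means taken off, the r on the TMM scale were 0.97, 0.96 and 0.91 (exact permutation, adjusted p = 0.0116 for each). The shared TMM factor remains in that form. Without the 2 libraries farthest from the median they were 0.89, 0.84 and 0.76 on the TMM scale (exact permutation, adjusted p = 0.0972, 0.101 and 0.157).

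As a description, the tested genes most like Lyz1 over the 8 libraries were sought among 6785 others with a mean of at least 10 TMM CPM. On the TMM scale they were Lamp1, a lysosomal membrane protein, Tent5c, a poly(A) polymerase, Msrb1, a methionine sulphoxide reductase, Slc35f5, and Pnliprp2, a lipase, with r from 0.97 to 0.98. On library totals their r ran from -0.30 to 0.68, and 0 of the 5 were among the first 5 there. Those most like Lyz2 on the TMM scale were Kcmf1, 4930453N24Rik, Dexi, Defa-ps7 and Mptx2, with r from 0.97 to 0.98. Of these, 2 were also among the first 5 on library totals, namely Mptx2 and Defa-ps7, a Defa pseudogene, both with an r of 0.91. These r are the highest of many and were fixed by the search. Lyz2 stood in place 455 by likeness to Lyz1. All of these genes share the library and its scaling factor.

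Since Lyz2 is a gene of myeloid cells, markers of such cells were counted beside it. The 18 listed markers together had 65, 44, 23 and 55 counts in the water mice and 7, 17, 26 and 35 in the zinc mice, below the count of Lyz2 alone in every library. This was 1.04 to 3.10 CPM with water and 0.322 to 1.66 with zinc. Of the 18 markers, 6 were at 0 in all libraries, among them Tyrobp and Fcer1g, signalling adaptors of myeloid cells, and S100a8 and S100a9, which neutrophils express at high levels. Csf1r, the receptor of macrophage growth factor, had 0 or 1 count in each. C1qa, a complement gene of tissue macrophages and the highest marker, had 42, 23, 13 and 0 counts with water and 3, 0, 0 and 0 with zinc. C1qa was too low to be tested, and was called by edgeR when the low-count filter was left out. C1qb and C1qc, also listed, each had 1 count in water replicate 3 and 0 in every other library. Lyz2 and the summed markers had an r of 0.19 over the 8 libraries on the TMM scale (rho 0.14, exact permutation p = 0.667 and 0.752, adjusted p the same) and of 0.24 on library totals. Without the 2 libraries farthest from the median of Lyz2 the r was -0.44. With only 7 to 65 counts in the sum, these r cannot show whether myeloid cells gave Lyz2 reads. The source of the Lyz2 reads was not tested.

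**Figure D5:**
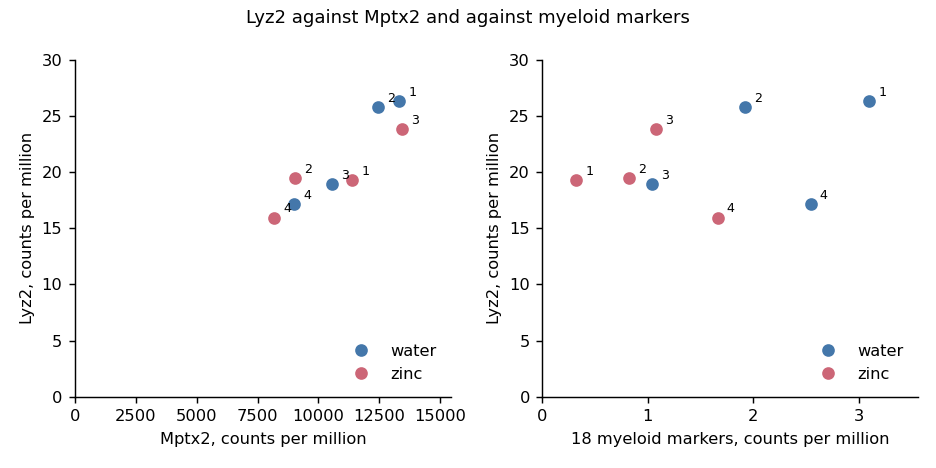
Lyz2 in CPM against Mptx2 in CPM (left) and against the sum of 18 myeloid markers in CPM (right), all on library totals, with points as libraries numbered by replicate. Mptx2 is shown because it had the highest r with Lyz2 of 6785 genes on library totals (0.91), so that value was set by the choice and cannot be weighed against the r of 0.24 with the markers, which were not chosen by their r.

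The sorted cells carried the Paneth cell markers at a high level. The 7 listed genes, Lyz1 included, stood at 418341 to 544646 CPM. Goblet cell markers stood at 2658 to 7182 CPM, led by Muc2 and highest in zinc replicate 4, and stem cell markers at 3175 to 6764, led by Olfm4. Enterocyte markers stood at 34.3 to 98.7, tuft cell markers at 7.59 to 110 and enteroendocrine markers at 2.63 to 89.6 CPM, led by Fabp2, Dclk1 and Chgb. Of the enterocyte markers, Sis had 26 to 75 counts with water and 40 to 472 with zinc (log2 fold change 2.49, SE 0.65, adjusted p = 0.852 in edgeR), and DESeq2 called it. Lymphoid markers had 0 or 1 count and markers of stroma and endothelium 0 to 5. The part of these cells in the lysozyme levels was not tested.

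Genes that act with lysozyme were counted next. Lysozyme releases muropeptides from bacterial walls, which host receptors bind. Of 15 listed genes for peptidoglycan recognition and muropeptide sensing, 9 were tested, 0 passed the threshold in edgeR, DESeq2 or limma-voom, and 1 had an unadjusted edgeR p below 0.05, against 4.65% of all genes tested. All 9 had a log2 fold change below 0 under each scaling (median -0.15, all tested genes 0.01), from -0.84 to -0.01, and up to 2 of them were above 0 when single libraries were left out. The smallest p was that of Tlr2, a receptor for bacterial lipoproteins, with 3.67 ± 1.57 TMM CPM in the water mice and 2.06 ± 0.138 in the zinc mice (SD, n = 4 each, log2 fold change -0.84, SE 0.32, adjusted p = 0.998 in edgeR). Pglyrp1, which encodes a secreted peptidoglycan recognition protein and is named after its values were seen, had 11873 to 14040 counts per library. Zinc and water differed by -0.01 on the log2 scale (SE 0.22, adjusted p = 0.998 in edgeR). Nod2, the intracellular sensor of muramyl dipeptide, had 4 to 40 counts and Nod1 had 83 to 229. Pglyrp2, Pglyrp3, Pglyrp4, Nlrp3, Slc15a3 and Slc46a2 were at 0 in all libraries.

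The packing of lysozyme into granules and its release by secretory autophagy are known to involve Nod2, Lrrk2, Rab2a and the Atg genes. Of 14 listed genes 13 were tested, and 0 were called or had an unadjusted edgeR p below 0.05 (8 log2 fold changes above 0 and 5 below, median 0.03). DESeq2 and limma-voom also called 0. Rab2a, a small GTPase of the secretory pathway, stood at 120 ± 9.07 TMM CPM in the water mice and 123 ± 13.4 in the zinc mice (SD, n = 4 each). Atg16l1, a core autophagy protein, stood at 11.1 ± 1.75 and 11.3 ± 1.94. The smallest p was that of Atg5 (log2 fold change 0.28, SE 0.14, adjusted p = 0.998 in edgeR). Without zinc replicate 1 the median of the list was -0.05. Lrrk2, a kinase, was at 0 in each of the 8 libraries.

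Of 14 listed antibacterial products other than lysozyme, 13 were tested and 0 passed the threshold, with 2 at an unadjusted edgeR p below 0.05, against 4.65% of all genes tested (4 log2 fold changes above 0 and 9 below, median -0.05). DESeq2 and limma-voom also called 0. The smallest p was that of Reg3g, a lectin that kills Gram-positive bacteria, at 1378 ± 481 TMM CPM in the water mice and 587 ± 248 in the zinc mice (SD of 4). The log2 fold change of -1.23 (SE 0.34) had an adjusted p = 0.794 in edgeR, and with library totals as the only scaling it was called (-1.27, adjusted p = 0.0383 in edgeR). The other one was Reg3b, a lectin of the same family (-1.87, SE 0.75, adjusted p = 0.998 in edgeR), named after its values were seen. Over the list, 9 log2 fold changes were above 0 without water replicate 1 and 0 without zinc replicate 1. Among 11 listed transcription factors of Paneth and myeloid cells 9 were tested and 0 were called or had an unadjusted edgeR p below 0.05, and DESeq2 and limma-voom called 0. Sox9, which Paneth cells need to form, stood at 128 ± 25.2 TMM CPM in the water mice and 118 ± 15.2 in the zinc mice (SD, n = 4 each). Of the factors listed for myeloid cells, Cebpa had 490 to 1028 counts and Irf8 had 659 to 1432. Both were above the 7 to 65 counts of the 18 myeloid markers summed, and which cells gave them was not tested. Spi1, which encodes PU.1, had 5 counts in water replicate 1 and 0 elsewhere, and Cebpe had 0 in all. The smallest p was that of Cebpb (log2 fold change -0.30, SE 0.17, adjusted p = 0.998 in edgeR).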

How the data were processed

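Gene expression was measured by mRNA sequencing in sorted Paneth cells of 8 mice. The authors deposited raw, unnormalized read counts in 1 table, with Ensembl gene IDs as rows and mice as columns. Per the labels, the submitters' processing notes name FastQC 0.12.0, STAR 2.7.0a, DESeq2 and the build mm39. No source used here gives the counting program, annotation, strand setting or treatment of reads that fit several genes. Symbols and coordinates were matched by ID to GENCODE M39 on GRCm39, for 54749 of 55414 IDs. Promoters came from RefSeq on GRCm38.p6 and were found for both genes.

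Groups were compared with edgeR 4.0.16 in R 4.3.3 (default low-count filter with a minimum count of 10, TMM, robust quasi-likelihood F test, Benjamini-Hochberg adjustment over 11988 genes, threshold 0.05). The SE was derived from the log2 fold change and the square root of F. TMM CPM used TMM factors and CPM library totals alone. Log2 levels for likeness used a prior count of 2. Exact two-sided permutation tests in Python 3.11.15 served for single values. Poisson and Wilson intervals cover counting error only, since no molecular identifiers are named. The p-values measure the spread between these mice, and no source used here says which mice shared a cage or a litter. The edgeR test was also run on simulated counts, in which all genes shared the same dispersion. These held no likeness by replicate number, so that run does not show how the test handles such likeness.

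The members, gene lists, markers and tests were chosen with earlier results of these data known. The genes named were both lysozyme genes, the nearest protein-coding neighbours, Itln1, Defa24, the summed coding Defa genes, Mt1 and Mt2, of each list the called members or that with the smallest p, list members at 0, the highest marker of each cell type, and the 5 genes most like each lysozyme gene. Any other list member was named with its values known. Alternatives were RLE factors, library totals, factors computed without Defa genes, Lyz1, Lyz2 and Itln1, DESeq2 1.42.0, limma-voom in limma 3.58.1, each library left out, the replicate number as a block, no filter and a minimum mean count of 50. Correlations within groups on library totals, those on library totals without the 2 farthest libraries, and the rescaled likeness values were added after the data had been seen.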

Additional observations from a re-analysis of the deposited data

Results flagged for a closer look

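Within groups of 4 libraries, the lysozyme values, the other named genes and the marker sums with at least 5 counts were screened with Dixon's test (95% level). It singled out 1 library in 5 of 64 groups, where chance singles out about 1 in 20, and in none of those of lysozyme values. Mt1 and Mt2 stood high in zinc replicate 2, at 425 TMM CPM (188.9 to 223 in the other zinc libraries) and 455 TMM CPM (205 to 239.8). Tlr2 stood at 1.86 TMM CPM in zinc replicate 3, against 2.12 to 2.14 in the others, which rests on 47 counts against 36 to 55. Pnliprp2, one of the genes most like Lyz1, stood at 6004 TMM CPM in water replicate 1, against 3444 to 3881. Dexi, one of those most like Lyz2, stood at 13.4 TMM CPM in zinc replicate 4, against 16.7 to 17.3.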

How the results depend on the processing

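With 4 mice a group, the 95% interval of Lyz1 spanned 0.615-fold to 1.74-fold on the TMM scale and 0.831-fold to 1.26-fold on library totals. Reads shared by the 2 genes limit how exactly Lyz2 can be measured. No alternative brought Lyz1, Lyz2, their shares or the difference in their ratio past the threshold. As single libraries were left out, the log2 fold change of Lyz1 ran from -0.16 (without zinc replicate 1) to 0.21 and was -0.05 without water replicate 4, that of Lyz2 ran from -0.37 to 0.067 (without water replicate 1), and the difference in the share of Lyz1 from -0.24 to 0.81 percentage points. Itln1 ran from -0.16 to 0.28 (-0.07 without water replicate 4) and Defa24 from -0.28 to 0.20 (0.10 without zinc replicate 4). The cause of these changes of sign was not tested.

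The count of genes past the threshold was 10. It was 66 without a low-count filter, 32 with the replicate block and 34 with DESeq2, and ran from 1 to 15 as single libraries were left out (1 without water replicate 2, 3 without zinc replicate 2 and 4 without water replicate 3). On library totals 1 listed gene was called, Reg3g. With the block the calls of Mt1 and Mt2 were lost (adjusted p = 0.379 and 0.241 in edgeR) at log2 fold changes of 3.62 and 6.14, against 3.65 and 6.15. That of Mt1 was also lost without any 1 of the water replicates, zinc replicate 1 or zinc replicate 4 (log2 fold change 3.49 to 3.85, adjusted p = 0.0612 to 0.159 in edgeR). With the replicate number as a block, the log2 fold change was 0.03 for Lyz1 (SE 0.11, 95% interval 0.870-fold to 1.20-fold, adjusted p = 0.964 in edgeR) and -0.15 for Lyz2 (SE 0.14, 95% interval 0.737-fold to 1.10-fold, adjusted p = 0.859 in edgeR). The labels do not say that a number marks a shared litter or day. The deviations of same-numbered libraries correlated at 0.23, 5.5e-05, 0.13 and 0.26 over genes. Water replicates 1, 3 and 4 correlated best with the zinc library of their own number. Water replicate 2 was near 0 with every zinc library (-0.0036 to 0.0025), so these values cannot tell its partner. By number, TMM factors were 0.764 and 0.775, 1.02 and 0.998, 1.07 and 1.05, and 1.21 and 1.23 (water and zinc). The libraries were not taken as paired, and the main tests and permutations do not allow for likeness by number.

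The correlation of Lyz1 and Lyz2 (0.76) was -0.18 on library totals, 0.60 without the 2 farthest libraries, -0.14 within groups on library totals and 0.056 on library totals without the 2 farthest. That of Lyz1 with the Defa genes (0.96) was 0.59, 0.89, 0.61 and 0.51 in the same order, that of Lyz2 with the Defa genes (0.90) was 0.67, 0.76, 0.68 and 0.58, and that of Lyz1 with Itln1 (0.96) was 0.61, 0.84, 0.59 and 0.66, all no longer past the threshold. That of Lyz2 with the myeloid markers (0.19) was -0.44 without the 2 farthest libraries and -0.39 on library totals without them. The cause of these changes was not tested. With the group means taken off on the TMM scale, the relation of Lyz1 and Lyz2 still passed (exact permutation, adjusted p = 0.0369). So did those of both genes with the Defa genes and of Lyz1 with Itln1 (exact permutation, adjusted p = 0.0116 for each).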
